A study of Kryptolebias marmoratus with 5 samples.

Results

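The thrombospondin genes were taken as every gene of *Kryptolebias marmoratus*, the self-fertilizing mangrove killifish, whose RefSeq symbol starts with *thbs* and a digit. The rule found 5 of the 22090 genes with a quantified coding sequence: *thbs1b*, *thbs2a*, *thbs3a*, *thbs4a* and *thbs4b*. Reads came from 5 pools of whole embryos, with a single library for each of WT, the *stl* mutant, the *btl* mutant and the siblings of either mutant. WT is the *Hon9* strain, and the mutant lines were made in it with the chemical mutagen ENU. The mutant pools are labelled shorttail (-/-) for *stl* and balltail (-/-) for *btl*, that is, homozygous. The *stl* embryos show the tail phenotype of a recessive missense allele of *noto*, a notochord transcription factor. The *btl* embryos show that of a recessive missense allele of *msgn1*, a transcription factor of the paraxial mesoderm. The siblings are embryos of the same line with a normal tail. In the paper's screen each mutant allele was also read in the sibling pool of its line, so these pools include carriers. All embryos were untreated, raised in brackish water at 26°C and, as labelled, pooled at St. 17 with some possibly at St. 16 or St. 18, between 20 and 25 per pool. Each mutation comes from a single founder fish and each group is a single pool, so the differences could not be checked in replicates and no p-values were computed.

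Thrombospondins are large calcium-binding glycoproteins secreted into the extracellular matrix, where they bind collagens, integrins and other matrix proteins. The family has a group of trimers, thrombospondin-1 and -2, which carry thrombospondin type 1 repeats, and a group of pentamers, thrombospondin-3, -4 and cartilage oligomeric matrix protein, which lack them. In zebrafish, Thbs4b is laid down at the myotendinous junctions, where somite muscle fibres attach to the matrix between the somites, and is needed for that attachment to hold. Muscle of the tail somites is formed from paraxial mesoderm, the tissue in which *msgn1* acts.

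*thbs4b* (gene 108231080, linkage group 14 of ASM164957v2, 12537012 to 12553507) has 1 coding sequence of 2823 nucleotides, which encodes 940 residues. It had 47 reads in *btl* but 1371 in *btl*-sibling, 686 in WT, 998 in *stl*-sibling and 1057 in *stl*. Scaled to library size with TMM factors, the levels in CPM (reads relative to the library total) were 5.62 in *btl*, 106.6 in *btl*-sibling, 59.2 in WT, 82.0 in *stl*-sibling and 89.2 in *stl*. The *btl* library thus stood below all the others, with an exact 95% Poisson interval of 4.13 to 7.47 CPM against 54.9 to 63.9 in WT, the next lowest. In the order of levels, *stl*-sibling and *stl* were the only neighbours whose intervals overlapped (77.0 to 87.2 and 83.9 to 94.7 CPM). These intervals, and those of read ratios used hereafter (exact, Clopper-Pearson, 95%), cover counting error only and compare libraries, not conditions. In a pool of whole embryos, fewer cells of a type cannot be told apart from less RNA per cell.

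In *btl*, *thbs4b* was 19.0-fold lower than in *btl*-sibling, 10.5-fold lower than in WT and 15.9-fold lower than in *stl*. The log2 fold changes, computed here and throughout after adding 0.5 CPM to both values, were -4.13 against the sibling (interval -4.70 to -3.83), -3.29 against WT (interval -3.86 to -2.97) and -3.87 against *stl* (interval -4.44 to -3.57). By these values, ranked from the lowest, *thbs4b* had rank 1 against the sibling, rank 9 against WT and rank 11 against *stl*. The ranking was among the 15362 genes above the minimum, a mean of 2 CPM. The comparisons share the *btl* library. *thbs4b* was singled out as the lowest paralog of the family in earlier results of these data, so its low ranks are in part given by that choice. The ranks depend on the added 0.5 CPM, which draws the fold changes of genes with few reads towards 0. *LOC119617527* (2 reads in *btl*) went from 8.52 CPM in *btl*-sibling to 0.27 in *btl*, a larger plain ratio than that of *thbs4b*. In *stl*, by contrast, *thbs4b* was at 0.12 against the sibling, with an interval of -0.01 to 0.25 that included 0, and 0.59 against WT (interval 0.45 to 0.73). The phenotypically normal libraries themselves differed, with log2 fold changes of 0.47 in *stl*-sibling and 0.84 in *btl*-sibling against WT, and -0.38 in *stl*-sibling against *btl*-sibling. The value in *stl* against WT lay inside that range, and the values in *btl* lay far outside it.

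**Figure D1:**
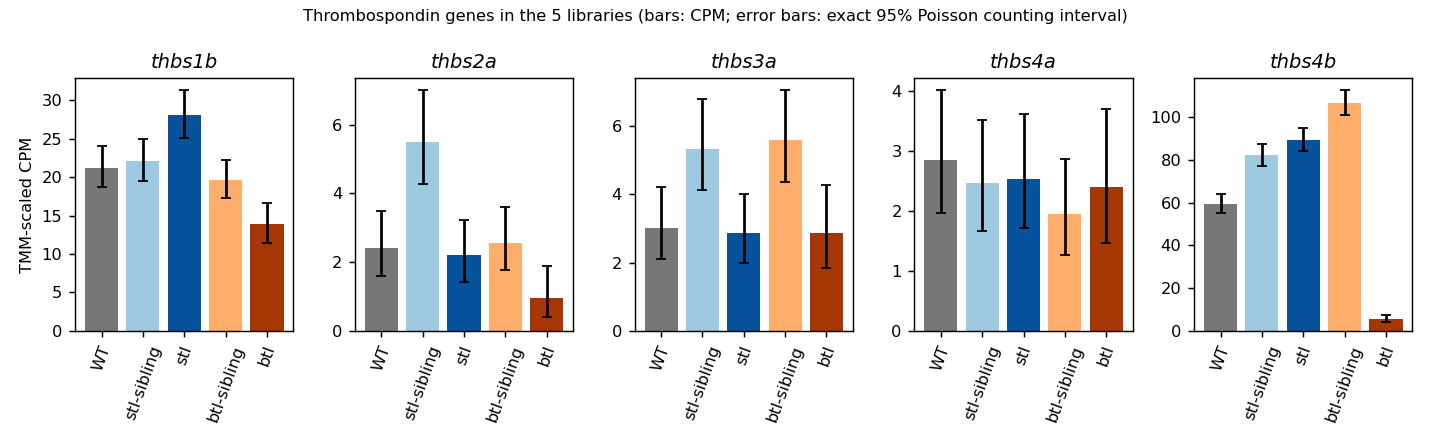
Level of each thrombospondin gene in the 5 libraries, in TMM-scaled CPM, with a separate vertical axis from 0 for each gene. Bars are single libraries and error bars are exact 95% Poisson counting intervals. *thbs4b* stands at 5.62 CPM in *btl* and between 59.2 and 106.6 CPM in the other libraries, whereas *thbs4a* stays between 1.94 and 2.85 CPM.

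*thbs4a* (gene 108234411, linkage group 1, 17499216 to 17509441), the paralog that shares the name of *thbs4b*, encodes 958 residues in 1 coding sequence of 2877 nucleotides. Its reads were 20 in *btl*, 25 in *btl*-sibling, 33 in WT, 30 in *stl*-sibling and 30 in *stl*, which scaled to 2.39, 1.94, 2.85, 2.46 and 2.53 CPM in the same order. All 5 intervals overlapped. The log2 fold change in *btl* was 0.24 relative to the sibling, with an interval of -0.63 to 1.21, and -0.21 relative to WT, with an interval of -1.13 to 0.59. A difference inside those intervals was not detectable at this depth, and both leave out a fall of the size of that in *thbs4b*. *thbs4a* and *thbs4b* thus differed in *btl* beyond counting error.

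*thbs3a* (gene 108251417, linkage group 16, 539784 to 552047) is the remaining member of the pentamer group named *thbs*. Thrombospondin-3 takes part in skeletal maturation in mice. The gene has 2 annotated coding sequences, of which the longer (2952 nucleotides) received 0 reads in every library and the shorter (2856 nucleotides) received 24 in *btl*, 72 in *btl*-sibling, 35 in WT, 65 in *stl*-sibling and 34 in *stl*. The levels fell into a lower set of 2.87 to 3.02 CPM in WT, *stl* and *btl*, and a higher set of 5.34 CPM in *stl*-sibling and 5.6 CPM in *btl*-sibling. Against the own sibling the log2 fold change was therefore -0.86 in *btl* (interval -1.70 to -0.28) and -0.79 in *stl* (interval -1.54 to -0.28), but against WT it was -0.06 in both (intervals -0.89 to 0.72 and -0.80 to 0.65). The siblings differed from WT by 0.73 in *stl*-sibling and 0.79 in *btl*-sibling on the log2 scale, nearly as much as the mutants differed from them.

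In the trimer group, *thbs1b* (gene 108233501, linkage group 19, 5229397 to 5241965) encodes 1169 residues in 1 coding sequence of 3510 nucleotides. In mammals, thrombospondin-1 inhibits the growth of blood vessels and activates latent TGF-beta. There were 116 reads in *btl*, 253 in *btl*-sibling, 246 in WT, 269 in *stl*-sibling and 333 in *stl*. The CPM of these reads were 13.9, 19.7, 21.2, 22.1 and 28.1 in the same order. The normal libraries lay close together, *stl* above them and *btl* below, and the interval of *btl* (11.5 to 16.6 CPM) did not overlap that of any other library. Relative to the sibling, the log2 fold change was -0.49 in *btl* (interval -0.83 to -0.18) and 0.34 in *stl* (interval 0.11 to 0.58). Relative to WT it was -0.60 in *btl* (interval -0.95 to -0.29) and 0.40 in *stl* (interval 0.16 to 0.65). The normal libraries differed from each other by -0.11 to 0.16.

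*thbs2a* (gene 108234122, linkage group 22, 23320650 to 23338459) is the other trimer gene. Thrombospondin-2 is known in mice for its part in the assembly of collagen fibrils. Its reads numbered 8 in *btl*, 33 in *btl*-sibling, 28 in WT, 67 in *stl*-sibling and 26 in *stl*, or 0.96, 2.57, 2.42, 5.50 and 2.19 CPM. The *stl*-sibling library was the high one and *btl* the low one, while the other libraries lay together. The reads of *stl*-sibling were divided between both annotated coding sequences, 26.2 on the longer (3555 nucleotides) and 40.8 on the shorter (3528 nucleotides), whereas in the other libraries 0 were assigned to the longer. Relative to the sibling, the log2 fold change was -1.07 in *btl* (interval -2.75 to -0.28) and -1.16 in *stl* (interval -2.04 to -0.65). Relative to WT it was -1.003 in *btl* (interval -2.68 to -0.17) but -0.12 in *stl* (interval -0.97 to 0.68). The *stl*-sibling library itself stood 1.04 above WT on the log2 scale.

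**Figure D2:**
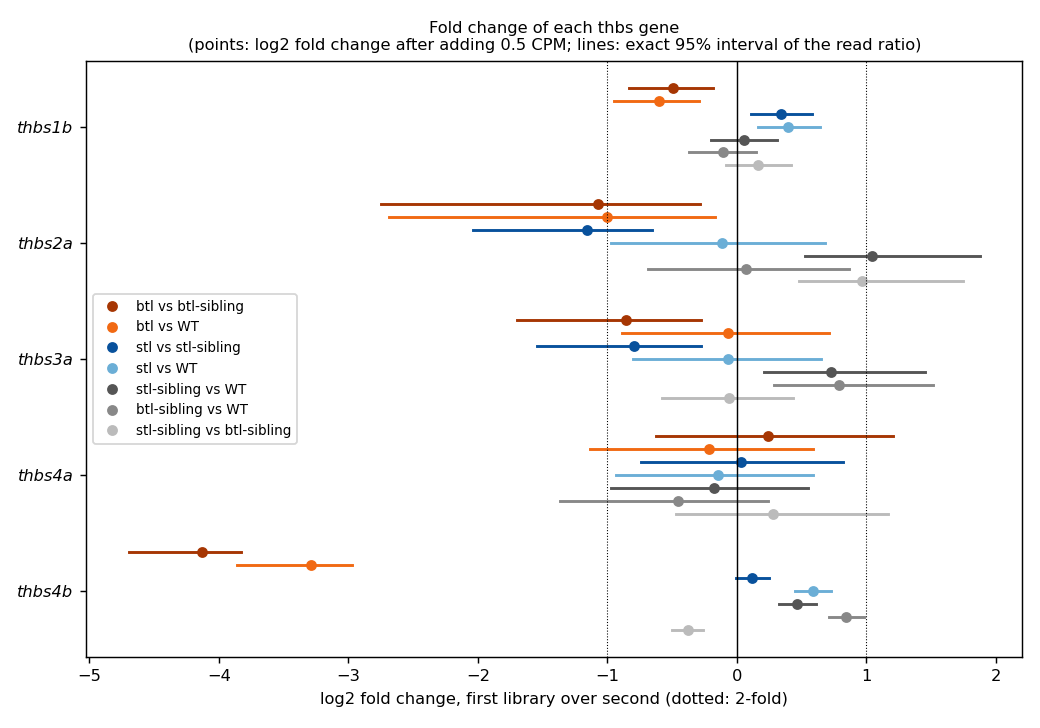
Log2 fold change of each thrombospondin gene (horizontal axis, first library over second) for the mutants against their siblings and WT and for the comparisons among the normal libraries. Points are log2 fold changes after adding 0.5 CPM, lines are exact 95% intervals of the read ratio, and dotted lines mark 2-fold. The values of *thbs4b* in *btl*, -4.13 and -3.29, lie apart from those of all its paralogs.

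Counted as changed at a 2-fold difference, 2 of the 5 members (*thbs4b* and *thbs2a*) were lower in *btl* against its sibling and 0 were higher, where 3.27% of all genes were lower and 4.33% higher. Against WT, *thbs4b* and *thbs2a* were again the 2 members lower in *btl* and 0 were higher, where 2.56% of all genes were lower and 1.8% higher. *thbs2a* was at the threshold there and was not past it with the size factors of DESeq2 (-0.997), TPM (-0.62), a pseudocount of 2 CPM (-0.58) or the length bins subtracted (-0.92), which left 1 member lower. In *stl* against its sibling 1 member (*thbs2a*) was lower, where 0.996% of all genes were, and 0 were higher, where 0.215% of all genes were. Against WT, 0 members passed 2-fold in *stl* in either direction, where 1.52% of all genes were lower and 1.2% higher. With so few members these counts rest on single genes, and that of *thbs2a* on 8 reads in *btl*. The median log2 fold change over the 5 members in *btl* against its sibling was -0.86, beside -0.02 over all genes, and without *thbs4b* it was -0.67. The median in *stl* against its sibling was 0.03, and without *thbs4b* it was -0.38. Among the normal libraries 1 member (*thbs2a*) passed 2-fold, in *stl*-sibling against WT, where 0.892% of all genes were higher and 0.82% lower.

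Coding sequences of this length ran lower in *btl* than in *btl*-sibling in general. The 768 genes with coding sequences of 2742 to 3186 nucleotides, the bin that holds the pentamer genes, were at -0.22 in the median in *btl* relative to its sibling, and the bin of the trimer genes (3186 to 3840 nucleotides) at -0.28. Relative to WT, the pentamer and trimer bins were at -0.11 and -0.09 in *btl*, and at 0.11 and 0.16 in *btl*-sibling. With the medians relative to the sibling subtracted, *thbs4b* stood at -3.91, *thbs2a* at -0.80, *thbs3a* at -0.64, *thbs1b* at -0.21 and *thbs4a* at 0.46. *thbs2a* was then no longer past 2-fold.

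Levels of different genes are compared per length, in TPM (a share of transcripts that allows for length) as the authors' quantification gives them. In WT, *thbs4b* was highest at 15.9 TPM, followed by *thbs1b* at 4.54 TPM, and *thbs3a*, *thbs4a* and *thbs2a* lay between 0.51 and 0.80 TPM with overlapping intervals. The order of the first pair was the same in *stl*-sibling, *stl* and *btl*-sibling. The TPM of *thbs4b* over that of *thbs1b* was 6.81 in *btl*-sibling (interval 5.95 to 7.81), 3.50 in WT (interval 3.02 to 4.07), 4.66 in *stl*-sibling and 3.98 in *stl*. In *btl* the ratio was 0.51 (interval 0.35 to 0.72), so *thbs1b* was the most abundant member there. The ratio of *thbs4b* to *thbs4a* likewise lay between 21.2 and 56.0 in the other libraries and was 2.40 in *btl* (interval 1.39 to 4.27). Ratios within a library do not depend on how libraries are scaled to each other.

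As a share of the summed reads of the family, *thbs4b* took 21.9% of 215 reads in *btl* (exact 95% binomial interval 16.5% to 28.0%), 78.2% of 1754 in *btl*-sibling, 66.7% of 1028 in WT (interval 63.8% to 69.6%), 69.8% of 1429 in *stl*-sibling and 71.4% of 1481 in *stl*. *thbs1b* took 54.0% of the family in *btl* (interval 47.0% to 60.8%) and between 14.4% and 23.9% elsewhere. The family as a whole was 5.31-fold lower in *btl* than in its sibling, with 25.7 against 136.4 CPM. Without *thbs4b*, the other 4 members summed to 20.1 CPM in *btl*, 29.8 in *btl*-sibling, 29.5 in WT, 35.4 in *stl*-sibling and 35.7 in *stl*. That sum was lower in *btl* than in its sibling by a log2 fold change of -0.56 (interval -0.84 to -0.30), so most of the difference in family reads was in *thbs4b*.

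**Figure D3:**
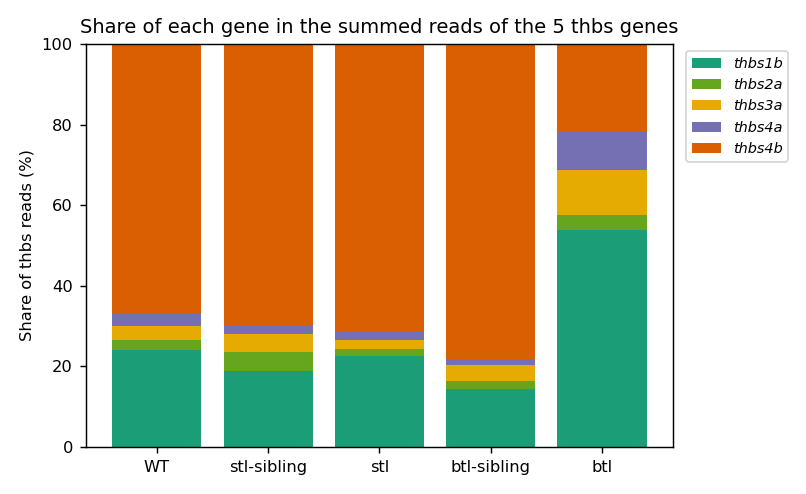
Share of each gene in the summed reads of the 5 thrombospondin genes (vertical axis, %), 1 bar for each library. *thbs4b* makes up 66.7% to 78.2% of the family in 4 libraries and 21.9% in *btl*, where *thbs1b* makes up 54.0%.

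*comp*, which encodes cartilage oligomeric matrix protein (thrombospondin-5), is of the pentamer group but is not a member by symbol. It lies on linkage group 24 from 6517177 to 6529288 and has 4 annotated coding sequences, whose reads were summed. Reads of *comp* numbered 52 in *btl*, 242 in *btl*-sibling, 209 in WT, 260 in *stl*-sibling and 383 in *stl*. Like *thbs1b*, it was lowest in *btl* and highest in *stl*. Relative to the sibling, its log2 fold change was -1.52 in *btl* (interval -2.06 to -1.16) and 0.59 in *stl* (interval 0.37 to 0.83), and relative to WT -1.47 in *btl* (interval -2.01 to -1.09) and 0.82 in *stl* (interval 0.59 to 1.09). Among the normal libraries it differed by at most 0.24.

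The genes whose pattern over the 5 libraries was most like that of *thbs4b* were found by the root mean square difference of log2 CPM, each gene centred on its own mean. The closest was *LOC108234230*, annotated as matrilin-2, an adaptor protein of the extracellular matrix, with a difference of 0.37. The matrilin gene had just 7 reads in *btl*, against 187 in *btl*-sibling, 149 in WT, 158 in *stl*-sibling and 116 in *stl*. The rest of the 10 closest, at differences of 0.47 to 0.62, were 6 genes annotated as myosin heavy chains (*LOC108229385*, *LOC108241321*, *LOC119617527*, *LOC108243721*, *LOC108229317* and *myhb*), the motor protein of muscle, *atp2a1l*, a calcium pump of the sarcoplasmic reticulum, *synpo2la*, annotated as a synaptopodin 2-like protein, and *LOC108228389*, annotated as uncharacterized. Reads could have been divided among the myosin genes, which resemble each other, so their values are uncertain. All 10 were more than 2-fold lower in *btl* against its sibling, with log2 fold changes of -3.54 to -2.46, which follows from how they were picked. Against the sibling, 10 of 10 were below 0 in *stl*, from -1.20 to -0.27, where *thbs4b* was at 0.12. Against WT, 2 of 10 were below 0 in *stl*, with a range of -0.38 to 0.85 and a median of 0.57, beside 0.59 for *thbs4b*. The genes were picked on all 5 libraries, so likeness to *thbs4b* in *stl* and WT is also part of the choice. In *stl*, *thbs4b* lay above all 10 against the sibling and inside their range against WT. Among the thrombospondins the most similar to *thbs4b* was *thbs2a*, at a difference of 1.12 and rank 322 of 15361 genes, and *thbs4a* was the least, at 1.55 and rank 8351.

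**Figure D4:**
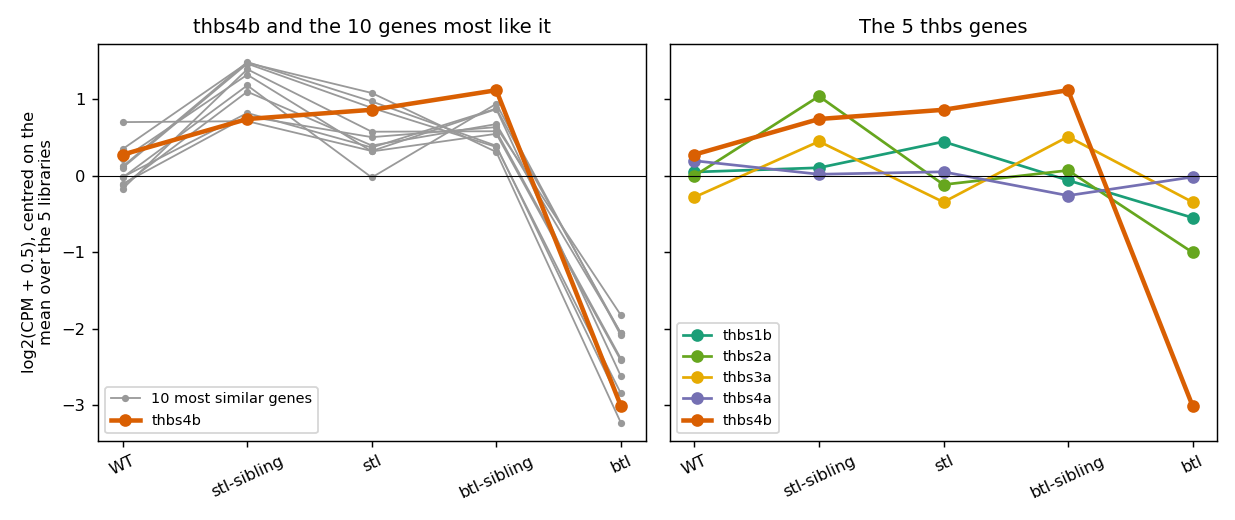
Pattern over the 5 libraries as log2(CPM + 0.5) centred on the mean of each gene (vertical axis), for *thbs4b* with the 10 genes most like it on the left and for the 5 thrombospondin genes on the right. *thbs4b* and the 10 genes, picked for their likeness over these libraries, drop together in *btl*, whereas *thbs4a* is nearly level.

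A list of genes of tendon, myoseptum and muscle attachment was written for the tissue that *thbs4b* is known for in zebrafish. Whether its values reflect that tissue was not tested. Of the 44 genes of that list above the minimum, 22 were at least 2-fold lower in *btl* against its sibling and 0 higher. Of all genes 3.27% were lower and 4.33% higher there. The median was -1.01 (log2) beside -0.02 over all genes. Against WT, 16 were lower and 0 higher, where 2.56% and 1.8% of all genes were, with a median of -0.84. With the medians of the length bins subtracted, 16 were lower against the sibling and 12 against WT. The share of all genes past 2-fold in that setting was not computed, here or for the other lists. With TPM 35 were lower against the sibling, but so were 2127 of all 15362 genes. Relative to the median of all genes, the list was at -0.76 with TPM and -0.99 with TMM. The genes of the list past 2-fold against both references with the largest changes against the sibling were *xirp2b* (-1.99), *tnc* (-1.86), *col5a1* (-1.54), *xirp2a* (-1.53), *comp* (-1.52) and *col1a1a* (-1.51). *xirp2b* and *xirp2a* encode actin-binding proteins of muscle attachment sites, *tnc* encodes the matrix protein tenascin-C, and *col5a1* and *col1a1a* encode fibrillar collagens. None of these fell as far as *thbs4b*. For *stl* against its sibling, 1 of the 44 (*xirp1*, -1.14) was at least 2-fold lower and 0 higher, with a median of -0.05. Of all genes 0.996% were lower and 0.215% higher there. Against WT 0 were lower and 2 higher, the collagen VI genes *col6a2* (1.25) and *col6a3* (1.58), where 1.52% and 1.2% of all genes were. The normal *stl*-sibling library was itself above WT in *col6a2* (0.72) and *col6a3* (1.23). Against that sibling, *stl* was at 0.52 and 0.35. *xirp1*, *col6a2* and *col6a3* were named after their values were seen. The list holds muscle proteins as well as matrix proteins, and 6 of its 44 genes are also in another list. Of the defining tendon markers, *tnmd* (tenomodulin) had 0 reads in all 5 libraries and *mkxa* had 9 to 33, below the minimum, and *scxa* and *scxb* were not matched by symbol.

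Of the 18 receptors and binding partners of thrombospondins above the minimum, 4 were at least 2-fold lower in *btl* against its sibling and 0 higher, where 3.27% of all genes were lower, with a median of -0.73 on the log2 scale. They were *dag1* (-1.36), which encodes dystroglycan, *itgb3a* (-1.31) and *itga6a* (-1.02), which encode integrin subunits, and *lrp1bb* (-1.24), of the LDL receptor family, of which all but *itgb3a* were named after their values were seen. Against WT only *itgb3a* passed 2-fold, at -1.64 (29 reads in *btl*, 137 in WT and 120 in *btl*-sibling), where 2.56% of all genes were lower. The count lower in *btl* against its sibling moved with the scaling, to 2 with the medians of the length bins subtracted, 9 with library size alone and 13 with TPM. Of all 15362 genes, 847 were lower with library size alone and 2127 with TPM. In *stl* 0 of the 18 passed 2-fold against either reference. Of all genes 0.996% were lower and 0.215% higher there against the sibling, and 1.52% and 1.2% against WT. The medians of the 18 were -0.03 against the sibling and 0.04 against WT. The other genes with thrombospondin type 1 repeats above the minimum, such as spondins and ADAMTS proteases, numbered 26. In *btl* against its sibling 3 were at least 2-fold lower (*ccn2a*, *sema5ba* and *thsd7ba*, from -1.08 to -1.01) and 0 higher, where 3.27% of all genes were lower. The median was -0.39. With the length bins subtracted 1 was lower and 1 higher. With library size alone 5 were lower and with TPM 8, and in both of these settings more of all genes were lower too. *ccn2a*, which encodes connective tissue growth factor, was the one also past 2-fold in the same direction against WT, with -1.08 and -1.02. That 1 of 26 (3.85%) is near the 2.56% of all genes lower against WT. Of the 26, 0 passed 2-fold in *stl* against its sibling, where 0.996% of all genes were lower and 0.215% higher. Against WT 1 was higher in *stl* (*thsd7ba*, 1.39) and 1 in *btl* (*adamts18*, 1.17), where 1.2% and 1.8% of all genes were. These are single genes of the list.

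The 43 marker genes of somite muscle above the minimum summed to 777 CPM in *btl*, 1776 in *btl*-sibling, 1580 in WT, 2445 in *stl*-sibling and 1620 in *stl*. For the counts that follow, 3.27% of all genes were lower and 4.33% higher in *btl* against its sibling, and 2.56% and 1.8% against WT. In *stl*, 0.996% were lower and 0.215% higher against its sibling, and 1.52% and 1.2% against WT. In *btl* against its sibling 23 of the 43 were at least 2-fold lower and 1 higher, the chaperone gene *hsp90aa1.2* (1.77), with a median of -1.17. The lowest against the sibling were *myhb* (-3.03), *atp2a1l* (-2.97) and *myog* (-2.70), which encodes a muscle regulatory factor. Against WT 21 were lower in *btl* and 0 higher, with a median of -0.98. *hsp90aa1.2* was at -0.32 there, and at -2.09 in *btl*-sibling against WT. For *stl* against its sibling 20 were lower and 1, again *hsp90aa1.2*, was higher (1.66), with a median of -0.95, beside 0.12 for *thbs4b* in the same libraries. Against WT 6 were lower in *stl* and 2 higher, *hsp90aa1.2* (1.19) and *ryr3* (1.002), with a median of -0.30. The rise of *hsp90aa1.2* in *stl* was thus past 2-fold against both references. The *stl*-sibling library itself ran high in these genes, with a median of 0.55 against WT and 0.46 against *btl*-sibling. Epidermis markers also moved in *btl*, where 11 genes summed to 6688 CPM against 11093 to 12483 CPM in the other libraries, and 3 of the 11 (*evpla*, *ppl* and *grhl3*) were lower against the sibling and 0 higher. The 19 neural genes had a median of -0.18 in *btl* against its sibling, with 0 past 2-fold. Of 36 notochord genes, 15 were lower and 4 higher there (*tbxtb*, *tbxta*, *noto* and *ptgdsb.1*). Of those past 2-fold against both references, *col2a1a* (-2.85), *cmn* (-2.42) and *chrd* (-2.39) changed most against the sibling. In *stl* against its sibling 13 were lower and 0 higher, among them *cmn* (-5.76) and *emilin3a* (-5.46, on 2 reads in *stl*). Against WT, 12 of the 36 were lower and 2 higher in *btl*, and 12 lower and 0 higher in *stl*. In *btl* against its sibling, 2 of 11 paraxial mesoderm genes were lower (*tbx6* and *tcf15*) and 2 higher (*msgn1* itself and *her7*). In the same comparison 1 of 9 blood genes (*hbae5*) and 2 of 6 heart genes (*myl7* and *tnnt2a*) were higher, and 0 were lower. Against WT, 2 paraxial mesoderm genes were lower in *btl* and 3 higher, with *tbx16* (1.11) added. Of the blood genes 0 passed 2-fold there, and of the heart genes 1 (*myl7*) was higher. The blood genes had a median of -0.46 in *btl*-sibling against WT. The part of these markers in the values of the thrombospondins was not tested.

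**Figure D5:**
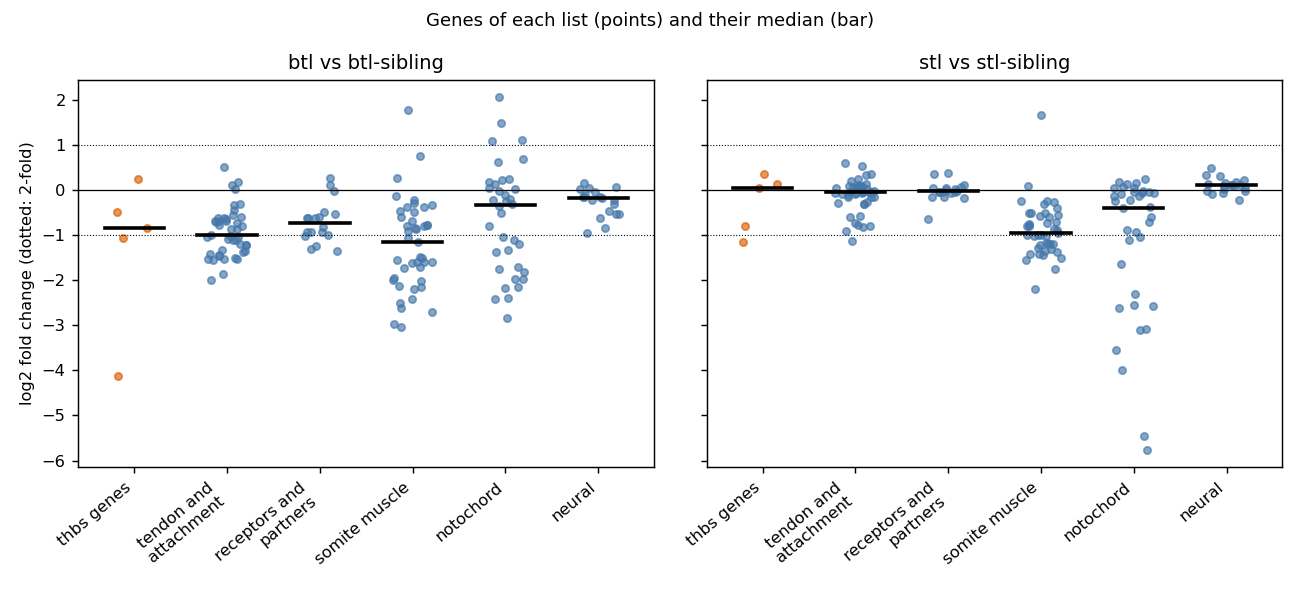
Log2 fold change against the own sibling (vertical axis) in *btl* on the left and *stl* on the right, for the thrombospondin genes (orange) and for the genes of 5 lists above the minimum (blue). Bars are medians and dotted lines mark 2-fold. The tendon and attachment list has a median of -1.01 in *btl* and -0.05 in *stl*, whereas the somite muscle list has -1.17 and -0.95. Against WT, not drawn, the medians of these lists in *stl* were 0.23 and -0.30.

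The libraries held between 9147625 (*btl*) and 12220249 (*btl*-sibling) estimated reads on coding sequences. The altered alleles are missense changes, which read counts do not check. *msgn1* had 2163 reads in *btl* and 89 to 159 in the others, and *noto* had 44 reads in *stl* and 92 to 134 in the others.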

How the data were processed

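RNA-seq of 5 pools of whole embryos was used. The authors trimmed paired end reads and quantified them with Salmon 1.5.0 on the coding sequences of ASM164957v2, and deposited for each library the estimated counts, unscaled, and TPM. Product names in words were taken from a table the authors deposited, whose NOISeq ratios, probabilities and ranks were not used.

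Coding sequences were assigned to genes through RefSeq protein accessions (37146 of 37181), and the estimated counts, which need not be whole, were summed per gene. Salmon divides ambiguous reads, so paralogs could share some. CPM used the TMM factors (0.914 to 1.05) of edgeR 4.0.16 (R 4.3.3). Other steps used Python 3.11.15, numpy 2.4.6, pandas 2.3.3, scipy 1.17.1 and matplotlib 3.10.9. The minimum was a mean of 2 CPM, which 15362 genes and 5 of 5 members passed. Counts were rounded for intervals and for DESeq2 1.42.0, used for size factors only. The computation was tested on simulated data. Alternatives were other scalings (library size, DESeq2, TPM), pseudocounts, minimum levels, references and thresholds, single coding sequences, and subtraction of the median of genes of like coding length. No sequences were used here.

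All members are named. Of each list and mutant, up to 6 genes past 2-fold against both references were picked for naming, largest first. For the somite muscle and notochord lists not all of those picked are named. Where a count of 5 or fewer fell outside this rule its genes were named after their values were seen. The tendon, receptor, type 1 repeat, somite muscle, paraxial mesoderm, notochord, neural, epidermis, blood and heart lists were written from general knowledge. The members and lists were chosen with earlier results of these data known.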

Additional observations from a re-analysis of the deposited data

Results flagged for a closer look

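*thbs1b* and *comp* moved oppositely in the mutants: each was lower in *btl* and higher in *stl*, whether set beside the sibling or WT. Every counting interval left out 0. Both genes were flagged for these features and for changes larger than those between normal libraries, so all of these are part of the choice. The log2 fold change relative to the own sibling differed between *btl* and *stl* by -0.83 for *thbs1b* (-0.49 and 0.34) and by -2.11 for *comp* (-1.52 and 0.59). Normal libraries differed by at most 0.16 and 0.24 for these genes. There being 1 library per mutant, this difference was not tested. The length bin of *thbs1b* was itself at -0.28 in *btl* relative to the sibling. With the bin medians subtracted, *thbs1b* kept its signs, at -0.21 in *btl* and 0.29 in *stl* relative to the sibling. Relative to WT it was at -0.51 in *btl* and 0.25 in *stl*. On that scale *btl*-sibling stood at -0.27 against WT, so -0.21 and 0.25 were no larger than a difference between normal libraries. Outside the screened genes, *tbxta* and *noto* of the notochord list also moved oppositely, but higher in *btl* and lower in *stl*. *tbxta* was at 1.49 (sibling) and 1.64 (WT) in *btl*, and at -1.64 and -1.61 in *stl*. *noto* was at 1.11 and 0.95 in *btl*, and at -0.94 and -1.02 in *stl*.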

How the results depend on the processing

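With 1 pool per group, leaving out a replicate was not possible. No paired analysis was possible because each group is a single pool, which leaves at most 1 pair. The fall of *thbs4b* in *btl* kept its direction and stayed past 2-fold in every alternative, with log2 fold changes of -4.35 to -3.29 against the sibling or its replacements. Other minimum levels and the coding sequence with most reads could not change the value of this gene, which has 1 coding sequence. Against its sibling it moved beyond its counting interval only with another reference, to -3.29 with WT, -3.75 with *stl*-sibling and -3.76 with the mean of the 3 normal libraries. In *stl*, *thbs4b* moved to 0.59 with WT as the reference and to -0.26 with *btl*-sibling, so its sign there depends on the reference. Of 156 alternative values of the other members, 149 stayed within the counting interval. Some of these could not differ from the main value, such as those with another minimum level or for genes with 1 coding sequence. Only main values past 2-fold, which here were of *thbs2a*, could be scored as reversed, and 0 were. The count of members lower in *btl* fell from 2 to 1 with a pseudocount of 2 CPM, a minimum mean of 10 CPM (which left only *thbs1b* and *thbs4b*), the length trend removed, or a 4-fold threshold. It rose to 3 with library size alone, where *thbs3a* was at -1.03, and with TPM the 2 were *thbs4b* and *thbs3a* (-1.04), with *thbs2a* at -0.80. The count of members lower in *stl* against its sibling fell from 1 to 0 with TPM, a pseudocount of 2 CPM, a minimum of 10 CPM, the coding sequence with most reads (*thbs2a* at -0.52), each of the 3 other references, or 4-fold. The median of all genes in *btl* against its sibling was -0.02 with TMM, -0.55 with TPM and -0.22 with library size alone, and the genes past 2-fold split into 503 lower and 665 higher, 2127 and 64, and 847 and 321. Relative to that median, the tendon and attachment list stood at -0.99 with TMM and library size and at -0.76 with TPM. The value of *thbs4a* in *btl* against its sibling ran from -0.21 to 0.46, so its sign depends on the setting. In TPM, which divides by length, the share of *thbs4b* in the family was 80.9% in *btl*-sibling, 70.6% in WT, 73.4% in *stl*-sibling and 75.2% in *stl*. Depth limits *thbs2a*, *thbs3a* and *thbs4a* most, each with 8 to 72 reads per library.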
